A study of Homo sapiens with 15 samples.

Results

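HSSYII is a human synovial sarcoma cell line that carries SS18-SSX1, and the experiment described here lowered that fusion with short hairpin RNAs and measured all mRNA 96 hr later. Of the 15 RNA-seq libraries of the series, 9 belong to it. The members were chosen from the labels alone: 3 libraries of cells infected with shSS18-SSX1-1, 3 with shSS18-SSX1-2 and 3 with shRenilla, a control hairpin against a luciferase gene that human cells lack. The 2 fusion hairpins are called the first and the second below, and the mean of their effects was set against shRenilla. All 9 libraries came from HSSYII cells below passage 12 that were infected at an MOI of 1.0 with lentivirus carrying a GFP marker and a hairpin, and were then grown with no drug selection, so cells that escaped infection can be in every pool. Neither the labels nor the methods say whether the 3 libraries of a group came from separate cultures, and the tests then rest on a spread that may be technical only.

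Synovial sarcoma carries a chromosomal translocation that joins SS18, a subunit of the BAF chromatin remodelling complexes, to the end of an SSX protein. SSX genes are normally silent outside the testis. The fusion protein enters BAF complexes and carries them to sites that they do not otherwise occupy, among them the CpG-rich promoters of developmental regulators held by Polycomb complexes. Synovial sarcoma cells look like primitive mesenchyme, in part with epithelial structures, and HSSYII is grown as a line of such tumour cells.

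The deposited rows, 1 per transcript, summed to 42309368 to 61714531 counts per library over the 9 libraries, and the rows kept, 1 per gene, to 18576874 to 27027411 with a median of 22165851. Levels are given as CPM, counts scaled to library size with TMM factors, and are not divided by gene length, so they compare libraries and not genes. A value in parentheses after a gene is its log2 fold change, hairpins over shRenilla. TMM assumes that most genes did not change, and the tables hold no spike-in rows, so a fall shared by all genes cannot be seen. Libraries of the same group lay 0.179 to 0.347 apart on the log2 scale (root mean square over the 500 most variable genes), libraries of different fusion hairpins 0.406 to 0.510 apart, and a fusion hairpin and shRenilla 2.16 to 2.45 apart. The first shRenilla library stood off from the other 2 of its group (chi-square per degree of freedom 34.6 and 25.6, against 9.31 between those 2), and list counts that move by more than 1 gene without it are given both ways. Markers of other cells were not all low. The 12 fibroblast markers, some of which mesenchymal tumour cells also express, summed to 222 to 287 CPM in shRenilla, 336 to 368 CPM with the first hairpin and 336 to 345 CPM with the second. The 10 endothelial markers summed to 42 to 55.5, 25.8 to 31.3 and 33.3 to 41.8 CPM in the same order. Of the 5 tested, 2 were higher and 3 lower, ERG (-0.35) and EGFL7 (-1.59) among the latter. TEK was among those higher, with 0 counts in shRenilla and 149 with the hairpins, at least 25.9-fold on a floor of 3 counts over the group. The 10 keratinocyte and gland markers summed to 19.4 to 21.6, 24.9 to 27.3 and 27 to 29.9 CPM. The 13 leukocyte genes summed to 4.2 to 5.99 CPM in shRenilla, 6.93 to 7.81 CPM with the first hairpin and 6.67 to 7.52 CPM with the second, with 2 at 0 counts in all 9 libraries, and PTPRC, CD3E, PECAM1, CDH5 and VWF were too low to be tested. The part of other cells in the results was not tested. Of 15 synovial sarcoma markers 14 were tested and CD99 was listed at 0 counts in all 9 libraries. Why CD99 was at 0 was not tested, and the value is not read as absence of its mRNA.

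SSX1 and SS18, the genes at the ends of the fusion, were both lower with the hairpins. SSX1 lies at chrX:48114827-48126879 and SS18 at chr18:23596217-23671181 of GRCh37, the build named in the submitters' processing notes. SSX1 read 77.7, 58.4 and 55 CPM in shRenilla, 20.8, 20.6 and 18.7 CPM with the first hairpin and 28.5, 28.8 and 27.3 CPM with the second. All 6 hairpin libraries lay below all 3 shRenilla libraries, the first hairpin below the second, and the first shRenilla library was the highest. The log2 fold change of SSX1 was -1.42 ± 0.0978 (SE, adjusted p = 5.70e-08) by the quasi-likelihood test of edgeR, Benjamini-Hochberg adjusted, as are the other adjusted p-values. SS18 read 158, 179.7 and 176 CPM in shRenilla, 111, 112 and 109.7 CPM with the first hairpin and 120.2, 119.7 and 125 CPM with the second. Its log2 fold change was -0.56 ± 0.0611 (SE, adjusted p = 4.72e-06). SS18 reads come from the fusion and from the intact allele alike, and SSX genes are near-identical copies whose reads can be split among them, so neither value is that of the fusion transcript by itself.

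Of 14268 genes tested, 3216 (22.5%) were higher and 3153 (22.1%) lower at an adjusted p under 0.05, whatever the fold. Counts of list members that rose or fell below use the same threshold and are to be read beside these shares. At a fold above 1.5 as well, the rule for a call here, 1781 (12.5%) were called higher and 842 (5.90%) lower. The 2 directions differed in size: 571 genes were called higher and 23 lower by more than 4-fold, and 249 against 0 by more than 16-fold. The median log2 fold change over all genes was -0.01. Genes called higher took 3.73 to 3.95% of all counts in shRenilla and 7.71 to 8.4% with the hairpins, while genes called lower went from 5.21 to 5.67% down to 2.75 to 3.45%. In 2442 of the 2623 called genes the 6 hairpin libraries did not overlap the 3 shRenilla libraries, which held for 38.7% of all genes tested.

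Calls upward were most frequent among tested genes with a low mean level over the 9 libraries. Among 1276 genes with a mean under 1 CPM, 30.6% were called higher and 7.21% lower, and among 2586 genes over 100 CPM, 5.72% were called higher and 3.94% lower. The plot of change against level shows the rises fanning out at the low end. The level is a mean over all 9 libraries, 6 of them with a fusion hairpin, and the filter on low counts used the same libraries. Both the level of a gene and its place among the genes tested therefore depend in part on its change. How much of the pattern comes from that dependence was not tested.

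**Figure D1:**
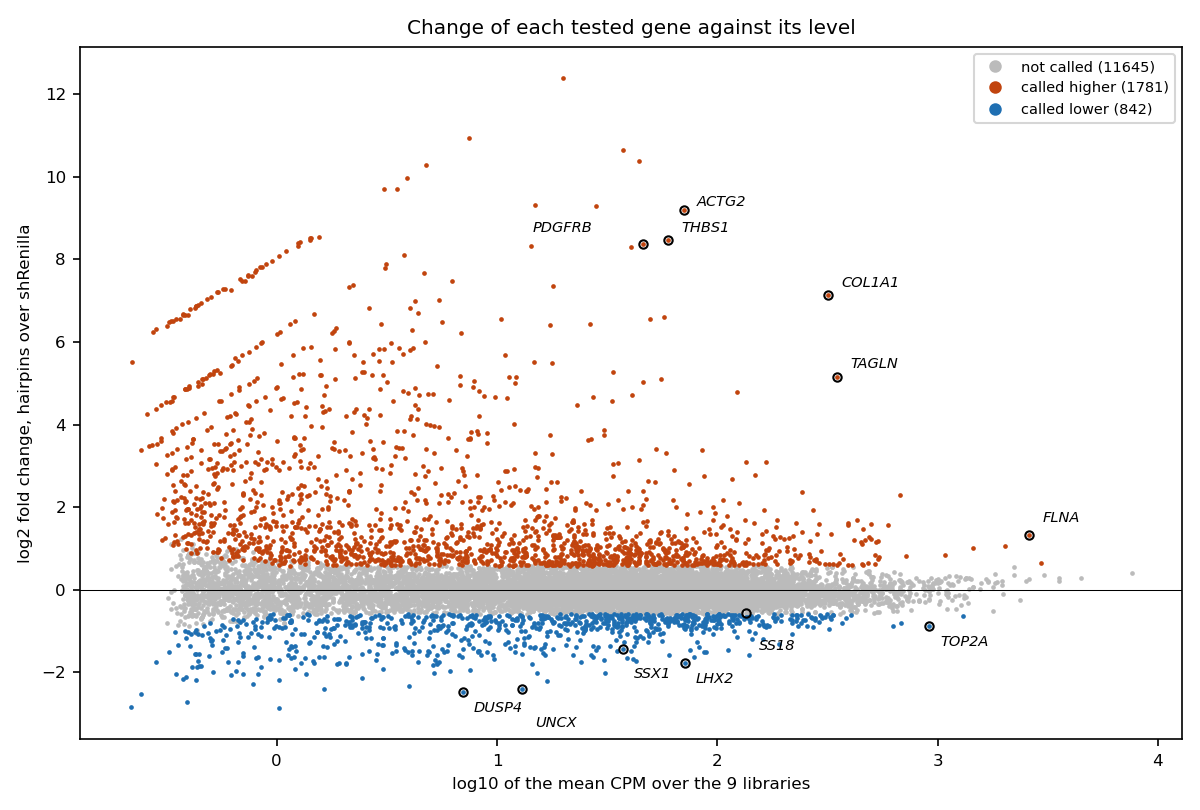
Log2 fold change of the 14268 tested genes (mean of both hairpins over shRenilla, vertical axis) against the log10 of the mean CPM over the 9 libraries (horizontal axis), with 1781 genes called higher in red, 842 called lower in blue and 12 genes ringed and named. Red points reach much farther from 0 than blue ones, with 249 calls above 16-fold upward and 0 downward. Fitted changes of genes with no shRenilla counts depend on the prior count and form the streaks at upper left.

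DNA replication genes were lower as a group. Before a cell divides, the MCM helicase is loaded onto DNA and is activated by CDC45 and the GINS proteins, and RRM2 and TYMS supply nucleotides. Of 35 tested genes of DNA replication, 34 fell and none rose, 28 by more than 1.5-fold, with a median log2 fold change of -0.67 against -0.01 over all genes. MCM2, a subunit of the helicase, read 185, 168 and 197 CPM in shRenilla, 105, 117 and 91.6 CPM with the first hairpin and 134, 109.9 and 139.98 CPM with the second. Its hairpin libraries all lay below shRenilla, and its log2 fold change was -0.66 ± 0.0914 (SE, adjusted p = 4.57e-05). GINS2 fell by 1.02 on the log2 scale, and CDC45 (-0.99), MCM10 (-0.87), RRM2 (-0.87) and TYMS (-0.67) fell too. The member that did not pass was CCNE1, cyclin E1, at a log2 fold change of -0.14 ± 0.0802 (SE, adjusted p = 0.189). The list summed to 5243 to 5462 CPM in the shRenilla libraries, 2917 to 3300.4 CPM with the first hairpin and 3378 to 3796 CPM with the second, with no overlap. In a pool of cells, fewer cells in a phase of the cycle and less mRNA per cell cannot be told apart.

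All 34 tested mitosis genes fell, 30 by more than 1.5-fold, with a median log2 fold change of -0.7. MKI67, which encodes Ki-67, the proliferation antigen that coats mitotic chromosomes, read 857, 873 and 964 CPM in shRenilla, 521, 496 and 368 CPM with the first hairpin and 604, 433 and 529 CPM with the second. TOP2A, the topoisomerase that untangles sister DNA, read 1289, 1381 and 1271 CPM in shRenilla, 693, 702 and 639 CPM with the first hairpin and 805, 709 and 775 CPM with the second. Neither gene overlapped between shRenilla and the hairpins, and the log2 fold changes were -0.87 ± 0.111 (SE, adjusted p = 2.24e-05) and -0.87 ± 0.064 (SE, adjusted p = 9.79e-08). PTTG1, the securin that holds back separase, fell by 1.08 on the log2 scale. BIRC5, the survivin of the chromosomal passenger complex (-0.99), and the factors MYBL2 (-0.9) and FOXM1 (-0.75), which drive mitotic genes, also fell. Without the first shRenilla library 34 replication genes and 33 mitosis genes fell and none rose. The median change of the replication list was -0.79 with the first hairpin and -0.56 with the second, and 34 of 35 genes had the lower value with the first; for mitosis genes these were -0.78, -0.62 and 32 of 34. Both hairpins were set against the same shRenilla libraries.

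**Figure D2:**
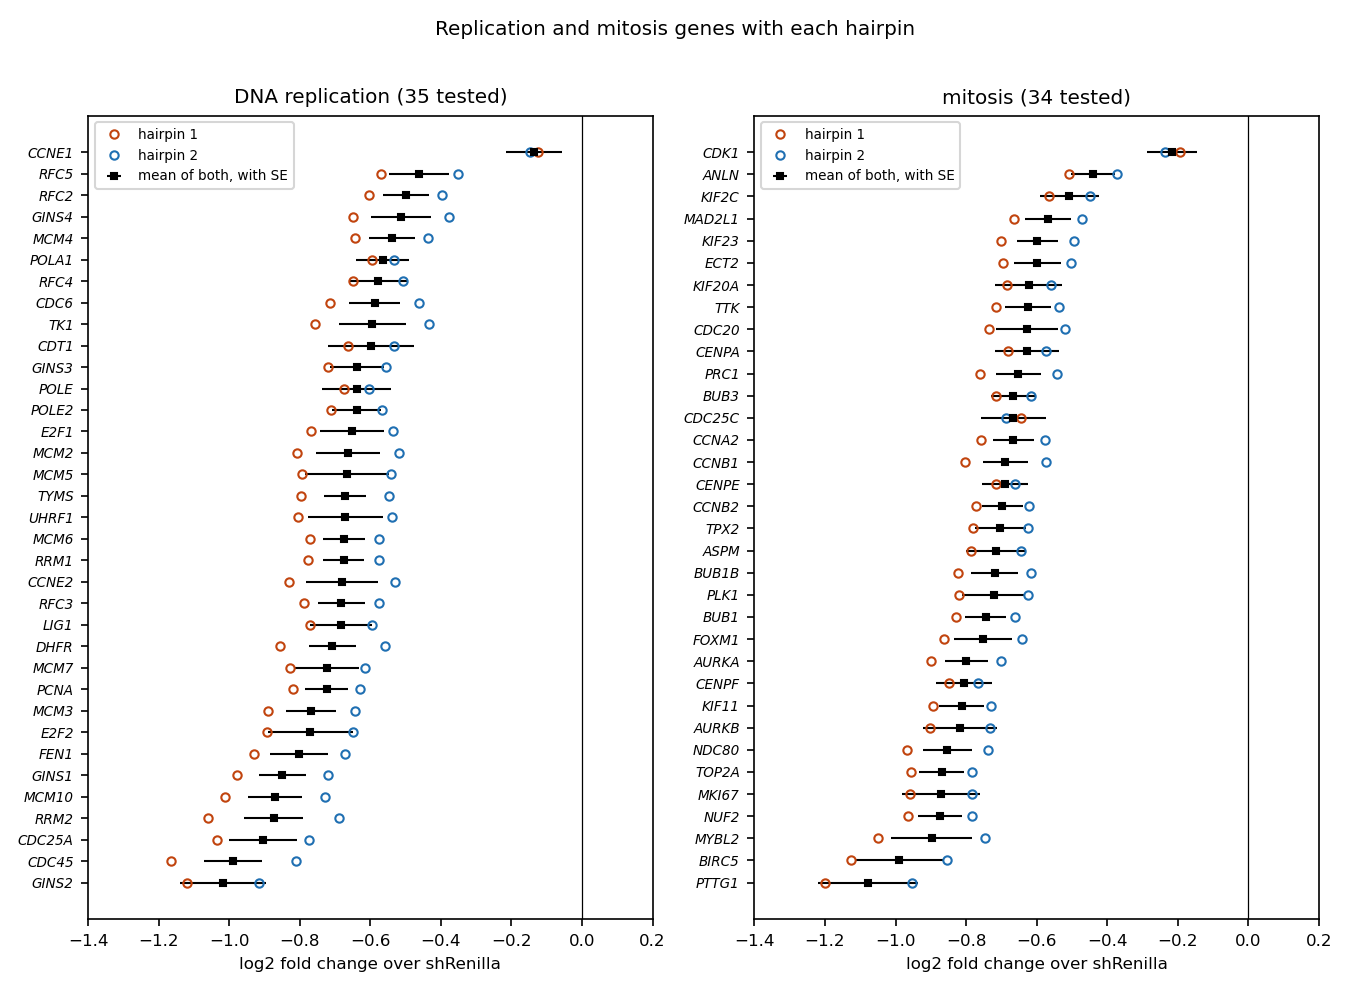
Log2 fold change over shRenilla (horizontal axis) of each tested DNA replication gene (35, left) and mitosis gene (34, right), with open points for the first (red) and the second (blue) hairpin and black squares for the mean of both with its SE. Every point lies left of 0, and the first hairpin has the lower value in 34 of 35 and 32 of 34 genes.

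The promoters of these genes are shown because the letters of known cell cycle elements stand in them. TTTNGCGC is a form of the site that E2F factors bind in replication genes, and TTTGAA is the core of the CHR, the element through which the DREAM complex and MYBL2 act on mitotic genes. Promoters are from RefSeq on GRCh38.p14, and the 250 bases before each annotated start were searched on both strands. TTTNGCGC stood in 10 of the 30 replication genes with a promoter entry (33.3%) and in 1.85% of all 27195 genes. TTTGAA stood in 15 of 28 mitosis genes (53.6%) and in 16.1% of all genes. A match of letters is a description and not a bound site. The 110 bases around the match are printed in lower case with matches in capitals, for the 3 genes of each list with the largest change among those that hold one.
CDC25A (chr3:48188418-48188527, minus strand): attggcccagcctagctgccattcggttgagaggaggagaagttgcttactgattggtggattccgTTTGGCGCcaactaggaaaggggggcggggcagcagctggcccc
E2F2 (chr1:23531234-23531343, minus strand): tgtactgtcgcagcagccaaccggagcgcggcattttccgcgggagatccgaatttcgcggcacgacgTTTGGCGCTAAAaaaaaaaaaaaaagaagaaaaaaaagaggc
MCM7 (chr7:100101398-100101507, minus strand): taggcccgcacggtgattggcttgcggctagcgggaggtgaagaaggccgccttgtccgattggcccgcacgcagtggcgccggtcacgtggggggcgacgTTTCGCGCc
MKI67 (chr10:128126424-128126533, minus strand): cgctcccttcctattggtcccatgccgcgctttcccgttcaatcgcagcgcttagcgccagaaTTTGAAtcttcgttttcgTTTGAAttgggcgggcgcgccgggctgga
TOP2A (chr17:40417990-40418099, minus strand): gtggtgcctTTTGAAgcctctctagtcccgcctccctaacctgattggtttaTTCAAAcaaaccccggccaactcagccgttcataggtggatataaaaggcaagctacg
KIF11 (chr10:92593020-92593129, plus strand): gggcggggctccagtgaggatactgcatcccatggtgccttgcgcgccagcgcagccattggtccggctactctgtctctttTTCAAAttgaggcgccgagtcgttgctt
CDC25A, the phosphatase that releases cyclin-dependent kinases at entry into S phase, fell by 0.91 on the log2 scale. E2F2 (-0.77), MCM7 (-0.72) and KIF11 (-0.81), the motor that pushes spindle poles apart, fell as well.

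Upstream of both lists, D-type cyclins bind CDK4 and CDK6 to release the brake of the RB proteins, and CDK inhibitors oppose them. CCND1, cyclin D1 (chr11:69455924-69469242, GRCh37), read 387, 283 and 331 CPM in shRenilla, 148, 152 and 139 CPM with the first hairpin and 188, 153 and 184 CPM with the second. Every hairpin library lay below every shRenilla library, and the log2 fold change was -1.06 ± 0.0913 (SE, adjusted p = 4.76e-07). CCND2 (-0.31), CDK6 (-0.39) and RBL1 (-0.62), the p107 protein, fell, while CDK4 and RB1 gave 0.01 and 0.24 and did not pass. CDKN1B, the p27 inhibitor, went the other way and read 30.2, 34.2 and 31.3 CPM in shRenilla, 54, 55.8 and 59.9 CPM with the first hairpin and 50.7, 59 and 50.4 CPM with the second, a log2 fold change of 0.79 ± 0.0809 (SE, adjusted p = 2.82e-06). Of 6 tested CDK inhibitors 3 rose and 3 fell. CDKN2C, the p18 inhibitor, rose by 0.44 and CDKN1A, the p21 inhibitor, by 0.36. CDKN1C, the imprinted p57 inhibitor, was lower, at 9.96 CPM in shRenilla, 3.92 CPM with the first hairpin and 5.47 CPM with the second, a log2 fold change of -1.12. CDKN2D, the p19 inhibitor (-0.3), and CDKN2A, the p16 inhibitor, fell too, the latter at 0.904 CPM in shRenilla, 0.113 CPM with the first hairpin and 0.164 CPM with the second and a log2 fold change of -2.71.

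Single genes of p53 and of cell death changed by large folds. Of 24 tested p53 target genes, 10 rose (41.7%) and 4 fell (16.7%), 7 of the rises by more than 1.5-fold, with a median of 0.17. GDF15, a secreted stress cytokine, read 0.419, 0.448 and 0.627 CPM in shRenilla, 9.54, 11.6 and 13.4 CPM with the first hairpin and 13.3, 14 and 15.3 CPM with the second. GDF15 was under 1 CPM in every shRenilla library and over 10 CPM in most hairpin libraries, at a log2 fold change of 4.69 ± 0.19 (SE, adjusted p = 2.93e-10). TP53INP1 rose by 0.95 and SESN2 by 0.8. In the BCL2 family 4 of 14 tested genes rose (28.6%) and 1 fell (7.14%), beside 22.5% and 22.1% of all genes. BMF, a BH3-only protein that promotes apoptosis and binds the cytoskeletal motor complex of myosin V, read 4.95, 6.94 and 5.36 CPM in shRenilla, 56.5, 52.8 and 56.1 CPM with the first hairpin and 36.9, 47 and 36.5 CPM with the second, a log2 fold change of 3.04 ± 0.128 (SE, adjusted p = 4.63e-10). BBC3 and BCL2L11, 2 more BH3-only proteins, rose by 0.63 and 0.56, the protective BCL2L1 rose by 0.74, and BCL2, a protective protein that is used as a marker of synovial sarcoma, fell by 0.64. MCL1 (0.15) and BAX (-0.21) did not pass. Under the other settings 4 to 7 of the 14 rose and 1 to 3 fell.

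Growth genes moved little. Of 26 tested ribosome biogenesis genes, 19 fell and none rose, none by more than 1.5-fold, with a median of -0.27; without the first shRenilla library 14 fell. NCL, nucleolin, fell by 0.51, and NOP56 (-0.38) and DKC1 (-0.38), which belong to small nucleolar RNA particles, fell too. Of 32 respiratory chain genes 15 fell, none by more than 1.5-fold, and the count ran from 4 (second hairpin alone) to 17 over the other settings, 10 without the first shRenilla library. Of 26 glycolysis and hypoxia genes 7 rose (26.9%) and 8 fell (30.8%), near the 22.5% and 22.1% of all genes. Without the first shRenilla library 8 rose and 3 fell. The rises there included ADM, a vasodilator peptide, at 35.4 CPM in shRenilla, 133 CPM with the first hairpin and 125 CPM with the second (log2 fold change 1.87), the glucose carrier SLC2A3 (1.5) and VEGFA, the endothelial growth factor (0.67).

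The integrated stress response, in which ATF4 raises amino acid synthesis and transport genes, was higher in part. Of 25 tested genes 15 rose, 10 by more than 1.5-fold, and 5 fell, with a median of 0.41. NUPR1, a small stress-induced chromatin protein, read 0.266, 0.448 and 0.193 CPM in shRenilla, 24.3, 23.9 and 28.8 CPM with the first hairpin and 24.1, 31.6 and 23.4 CPM with the second. All 6 hairpin libraries were above 20 CPM and all shRenilla libraries below 1, and the log2 fold change was 6.4 ± 0.22 (SE, adjusted p = 6.15e-11). DDIT4, an inhibitor of mTORC1 that is also known as REDD1, stood at 30.1 CPM in shRenilla, 239 CPM with the first hairpin and 178 CPM with the second (log2 fold change 2.78). VLDLR rose by 1.5 and CHAC1, which degrades glutathione, by 1.58. ATF4 mRNA itself was at -0.05 and did not pass. Lysosome genes rose more evenly: 18 of 25 rose and none fell, 5 by more than 1.5-fold, with a median of 0.3. GRN, the lysosomal progranulin, rose by 0.88, ASAH1, acid ceramidase, by 0.91, the protease CTSL by 0.78 and the membrane protein LAMP2 by 0.5. Over the other settings 14 to 20 lysosome genes rose.

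Interferon genes were higher. Interferons signal through the IFNAR receptor, JAK1 and TYK2 to a complex that holds STAT2 and IRF9, which switches on effectors that block viruses, and the same effectors can follow sensing of RNA by IFIH1 and DDX58 or of DNA through TMEM173 (STING). Of 32 tested effectors 31 rose, 30 by more than 1.5-fold, with a median log2 fold change of 2.46. MX1, a GTPase that traps viral particles, read 0.304, 0.269 and 0.434 CPM in shRenilla, 8.99, 6.24 and 9.13 CPM with the first hairpin and 13.4, 20.8 and 11.2 CPM with the second. The groups did not overlap, the second hairpin was above the first, and the log2 fold change was 5.05 ± 0.319 (SE, adjusted p = 2.47e-08). ISG15, a ubiquitin-like modifier, stood at 8.49 CPM in shRenilla, 31.8 CPM with the first hairpin and 39.4 CPM with the second and IFIT1, which binds foreign RNA ends, at 10.2 CPM in shRenilla, 48.2 CPM with the first hairpin and 59 CPM with the second. USP18, which dampens the interferon receptor, did not pass (0.13). The list summed to 231 to 254 CPM in shRenilla, 565 to 665 CPM with the first hairpin and 676 to 918 CPM with the second. Its median was 2.23 with the first hairpin and 2.7 with the second, and the first had the higher value in 1 of 32 genes.

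Of 20 tested sensor and signal genes 13 rose and 1 fell (12 and 0 without the first shRenilla library). TMEM173 was at 0.178 CPM in shRenilla, 5.91 CPM with the first hairpin and 9.92 CPM with the second, IFIH1 at 0.0908 CPM in shRenilla, 2.78 CPM with the first hairpin and 4.44 CPM with the second and IRF7, the factor that amplifies the response, at 1.72 CPM in shRenilla, 8.25 CPM with the first hairpin and 11.5 CPM with the second. The receptor subunit IFNAR1 (0.1) and TYK2 (-0.05) did not pass. The 6 interferon ligand genes listed were too low to be tested, with a summed level of 0 CPM in shRenilla and at most 0.0902 CPM with a hairpin. In antigen presentation 5 of 13 tested genes rose, among them NLRC5, the activator of MHC class I genes, by 2.38, HLA-C by 1.52 and B2M, the shared light chain, by 0.38. HLA-E, HLA-F, TAP1, PSMB8 and PSMB9 were too low to be tested. Of the 18 genes listed, 3 were at 0 counts in all 9 libraries, which is not read as absence of their mRNA. Of 23 cytokine genes listed 11 were tested, and 10 of these rose. The rest were too low to be tested, and a gene near 0 in shRenilla enters the test only through its hairpin counts. With a filter of at least 1 CPM in 3 libraries, 7 rose. CSF1, the macrophage growth factor, read 12.3, 10.6 and 13 CPM in shRenilla, 90.5, 96.7 and 91.7 CPM with the first hairpin and 85.4, 87.1 and 87.9 CPM with the second, a log2 fold change of 2.91 ± 0.0847 (SE, adjusted p = 1.02e-11).

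GAAANNGAA is the core of the interferon-stimulated response element, which STAT and IRF complexes bind. It stood in the 250 bases before a start of 20 of the 26 effectors with a promoter entry (76.9%) and in 8.41% of all genes. Here are 110-base stretches of 3 of them, with the match in capitals on whichever strand it lies.
IFI44 (chr1:78649679-78649788, plus strand): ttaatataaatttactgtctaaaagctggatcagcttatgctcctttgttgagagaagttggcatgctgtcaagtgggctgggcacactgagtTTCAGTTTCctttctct
RSAD2 (chr2:6865756-6865865, plus strand): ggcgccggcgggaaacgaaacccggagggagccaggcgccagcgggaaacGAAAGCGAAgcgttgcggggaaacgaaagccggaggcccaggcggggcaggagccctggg
MX1 (chr21:41431805-41431914, plus strand): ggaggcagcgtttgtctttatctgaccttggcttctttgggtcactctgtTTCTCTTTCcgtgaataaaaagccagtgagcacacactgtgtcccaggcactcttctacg
In IFI44 the match ends 8 bases before 1 of its 2 annotated starts and in RSAD2 70 bases before 1 of its 2. In MX1 it ends 186 bases before 1 of its 3 annotated starts. RSAD2, the radical enzyme viperin, had 2 counts over the 3 shRenilla libraries and 368 over the 6 hairpin libraries, a ratio of 95.9 (95% counting interval 26.4 to 795). IFI44, an antiviral cytoplasmic protein, had 0 and 159, at least 27.6-fold higher on the floor of 3 counts over the group.

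Genes of the extracellular matrix rose beyond the collagens. Matrix glycoproteins link collagen and elastic fibres and store growth factors, proteoglycans hold water and ligands, and integrins tie both to the cytoskeleton. Of 22 tested glycoprotein genes 18 rose, all 18 by more than 1.5-fold, and none fell, with a median of 2.77. THBS1, thrombospondin-1, which activates latent TGF-beta, read 0.152, 0.179 and 0.434 CPM in shRenilla, 87.2, 78.4 and 84.2 CPM with the first hairpin and 95.8, 98.4 and 91.7 CPM with the second. The groups were far apart, with shRenilla under 1 CPM throughout, and the log2 fold change was 8.47 ± 0.168 (SE, adjusted p = 3.01e-13). LTBP1, which anchors latent TGF-beta in the matrix, was at 0.873 CPM in shRenilla, 88 CPM with the first hairpin and 83.4 CPM with the second, and MFAP4, a microfibril protein, at 1.55 CPM in shRenilla, 47.5 CPM with the first hairpin and 33 CPM with the second. EFEMP1 (0.12) did not pass.

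The enzymes that process collagen rose less: 15 of 19 rose, 7 by more than 1.5-fold, with a median of 0.39. SERPINH1, the collagen chaperone HSP47, read 121, 140.5 and 157 CPM in shRenilla, 347, 355 and 368 CPM with the first hairpin and 346, 372 and 357 CPM with the second. It rose by 1.36 and LOXL1, which cross-links elastin, by 1.37, while P4HB, a subunit of prolyl hydroxylase, gave 0.03 and did not pass. Of 13 proteoglycans 11 rose and 1 fell. SDC2, a syndecan, rose by 3.87, CSPG4, the NG2 antigen of pericytes, by 2.88 and BGN, biglycan, by 2.77, and VCAN (0.13) did not pass. Among 11 tested integrin chains 7 rose and 1 fell, with the fibronectin receptor chain ITGA5 up by 1.67 and ITGAV by 0.76. Of 11 metalloproteinases and inhibitors 9 rose and 1 fell, and TIMP1, an inhibitor, rose by 1.03. The letters TGANTCA, the AP-1 site, were in none of the 7 with a promoter entry and in 8.02% of all genes.

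Among called genes with no overlap, FLNA, VIM and ACTB gained the most CPM. FLNA, filamin A (chrX:153576892-153603002, GRCh37), which cross-links actin, read 1355, 1095 and 1416 CPM in shRenilla, 3572, 3624 and 2929 CPM with the first hairpin and 3261, 2944 and 3224 CPM with the second, a log2 fold change of 1.34 ± 0.0983 (SE, adjusted p = 1.06e-07). VIM, vimentin, the intermediate filament of mesenchymal cells, read 1094, 1246 and 1155 CPM in shRenilla, 2569, 2556 and 2761 CPM with the first hairpin and 2178, 2521 and 2132 CPM with the second, a log2 fold change of 1.07 ± 0.0764 (SE, adjusted p = 7.96e-08). VCL, vinculin, rose by 1.00 and ACTB, beta-actin, by 0.66. Of 19 adhesion and stress fibre genes 16 rose and none fell, with ZYX, zyxin, up by 1.13 and FHL2 by 1.95. TAGLN, the smooth muscle protein SM22, read 17.2, 13.3 and 13 CPM in shRenilla, 506, 525 and 529.5 CPM with the first hairpin and 527, 554 and 475 CPM with the second. All shRenilla libraries lay far below all hairpin libraries, and the log2 fold change was 5.16 ± 0.112 (SE, adjusted p = 8.30e-13). Of 15 SRF, YAP and TEAD regulators listed, 13 were tested, 6 rose and 1 fell: TEAD3 rose by 0.83, the YAP relative WWTR1 (TAZ) by 0.46 and the SRF cofactor MKL1 by 0.39, YAP1 (-0.35) fell, and TEAD1 (-0.06) did not pass. Their targets rose in 11 of 14 cases and fell in 1, with a median of 1.12. CTGF, a matricellular growth factor, read 17.8, 20.1 and 29.5 CPM in shRenilla, 186, 184 and 206 CPM with the first hairpin and 188, 207 and 183 CPM with the second, a log2 fold change of 3.1 ± 0.139 (SE, adjusted p = 8.36e-10), and CYR61, its relative, rose by 1.68.

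CCTTATATGG is an instance of the CArG box, through which SRF acts on muscle and actin genes together with its cofactors. A CArG box stood in the 250 bases before a start of 5 of the 13 smooth muscle contractile genes with a promoter entry (38.5%), namely ACTG2, CNN2, MYLK, TPM4 and SMTN, and in 1.45% of all genes. The 3 with the largest change are printed, with each match in capitals.
ACTG2 (chr2:73892885-73892994, plus strand): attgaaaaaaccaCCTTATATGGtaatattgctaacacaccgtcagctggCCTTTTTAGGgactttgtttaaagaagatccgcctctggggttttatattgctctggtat
MYLK (chr3:123620583-123620692, minus strand): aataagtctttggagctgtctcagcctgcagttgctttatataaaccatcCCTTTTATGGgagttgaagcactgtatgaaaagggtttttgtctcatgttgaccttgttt
SMTN (chr22:31084886-31084995, plus strand): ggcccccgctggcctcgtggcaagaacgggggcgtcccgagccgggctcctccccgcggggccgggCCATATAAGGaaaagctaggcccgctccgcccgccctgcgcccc
The ACTG2 stretch holds 2 matches. ACTG2, enteric smooth muscle actin, read 0.0381, 0.269 and 0.241 CPM in shRenilla, 90.6, 89.9 and 104 CPM with the first hairpin and 111, 136 and 102 CPM with the second, a log2 fold change of 9.2 ± 0.233 (SE, adjusted p = 3.19e-12). MYLK, the kinase that starts smooth muscle contraction, read 0.837, 0.627 and 0.869 CPM in shRenilla, 69.6, 62.8 and 81 CPM with the first hairpin and 79.1, 86.4 and 66.5 CPM with the second, a log2 fold change of 6.56 ± 0.171 (SE, adjusted p = 3.53e-12). SMTN, smoothelin, rose by 0.95. No contractile gene of the 17 tested fell, and MYL6 (0.19) did not pass.

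Several muscle genes were at or near 0 in shRenilla. ACTC1, cardiac actin, had 0 counts in all 3 shRenilla libraries and 1515 over the 6 hairpin libraries, at least 263-fold higher taking 3 counts over the whole group as the floor. INHBA, the activin A subunit, was at least 108-fold higher, TNNT2, cardiac troponin T, at least 54.5-fold, CAV1, caveolin-1, at least 44.1-fold and CPA4, a carboxypeptidase, at least 167-fold on the same floor. LMOD1, leiomodin, had 2 counts in shRenilla and 3029 with the hairpins, a ratio of 789 (95% counting interval 218 to 6520.4), CRYAB, a small heat shock chaperone of muscle, a ratio of 245 (95% counting interval 67.6 to 2026), and CD44, the hyaluronan receptor, a ratio of 222 (95% counting interval 75.7 to 1076). These intervals and floors cover counting error only. ACTA2-AS1 shares 1638 of its 3183 exon bases with ACTA2 on the opposite strand, and since the strand setting of the counting is not given in the sources used here, reads of the pair cannot be told apart. No gene went off from a comparable level: the 10 highest genes with at most 3 hairpin counts were all below 0.23 CPM in shRenilla. FEV, a neuronal ETS factor, was the first of them, with 16 counts against 2. The 2 directions were not judged alike, since 3 counts were allowed over 6 hairpin libraries but over 3 shRenilla libraries. Cells without a hairpin can also keep counts up in unselected pools. The part of either in this difference was not tested.

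Growth factor pathways changed in a member-specific way. In the TGF-beta pathway, whose ligands act through TGFBR1 and TGFBR2 to SMAD2, SMAD3 and SMAD4, 11 of 20 genes rose and 2 fell (11 and 1 without the first shRenilla library). The receptor TGFBR2 rose by 2.41 (2.7 CPM in shRenilla, 14.4 CPM with the first hairpin and 14.1 CPM with the second), its co-receptor ENG by 1.44 and the ligands TGFB3 and TGFB2 by 1.52 and 1.32, while SMAD2 (-0.05) and SMAD4 (0.07) did not pass. In the related BMP pathway 9 of 21 genes rose (42.9%) and 5 fell (23.8%), beside 22.5% and 22.1% of all genes. BMP7, a ligand, read 360.4, 267 and 311 CPM in shRenilla, 109, 119 and 94.3 CPM with the first hairpin and 159.5, 122 and 166 CPM with the second, below shRenilla throughout, a log2 fold change of -1.31 ± 0.108 (SE, adjusted p = 3.37e-07), and BMP2 (-1.78) fell. NOG, noggin, the secreted antagonist that binds BMPs, read 0.419, 0.851 and 0.483 CPM in shRenilla, 26.8, 26.3 and 32 CPM with the first hairpin and 21.5, 31.6 and 20.5 CPM with the second, a log2 fold change of 5.5 ± 0.239 (SE, adjusted p = 5.94e-10). The receptor BMPR1B rose by 1.33 and the target genes ID3 and ID4 by 1.56 and 1.39.

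Of 18 tested genes of the PDGF and IGF axes 11 rose and 2 fell. PDGFRB, the receptor of pericytes and fibroblasts (chr5:149493402-149535435, GRCh37), read 0.228, 0.179 and 0.193 CPM in shRenilla, 72.5, 71 and 62.2 CPM with the first hairpin and 74, 63.5 and 68.4 CPM with the second. It stood below 1 CPM in every shRenilla library and the ranges of both hairpins overlapped, a log2 fold change of 8.37 ± 0.162 (SE, adjusted p = 3.01e-13), while its relative PDGFRA, at 216 CPM in shRenilla, 209 CPM with the first hairpin and 188 CPM with the second, did not pass (-0.12). Of the IGF-binding proteins, which sequester insulin-like growth factors, IGFBP4 rose by 5.1, IGFBP3 by 3.75, IGFBP7 by 2.61 and IGFBP6 by 2.41. Of 12 fibroblast markers, 5 were tested and 4 of these were higher, PDGFRB and THY1 (0.73) among them; LUM, DCN and FAP, which define fibroblasts in tissue, were too low to be tested.

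Wnt ligands act through frizzled receptors. Of 15 tested receptors and co-receptors 9 rose and 4 fell (7 and 4 without the first shRenilla library), and of 15 ligands and R-spondins 4 rose and 7 fell (6 and 6 without that library). FZD10, a frizzled receptor that is a marker of synovial sarcoma, read 125, 122 and 148 CPM in shRenilla, 47.4, 54.7 and 42 CPM with the first hairpin and 68.4, 49.2 and 72.5 CPM with the second, a log2 fold change of -1.26 ± 0.114 (SE, adjusted p = 8.02e-07). FZD4, FZD1 and FZD2 rose by 1.4, 1.39 and 1.26. Among ligands, WNT2B rose by 4.02 and WNT6 by 2.1, WNT7B (-1.48) and WNT3A (-1.35) fell, and WNT5A (-0.1) did not pass. Of 13 tested Wnt antagonists and targets 3 rose (23.1%) and 4 fell (30.8%), near the 22.5% and 22.1% of all genes. The nuclear factors TCF7 (-0.88) and LEF1 (-0.4) and the secreted inhibitor NOTUM (-1.11) were among those that fell, while the target AXIN2 (-0.21) did not pass.

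FGF ligands and receptors signal to the MAPK cascade, which induces its own brakes. Of 13 tested FGF genes 4 rose and 7 fell. FGF8 read 14.5, 7.16 and 8.83 CPM in shRenilla, 1.81, 2.1 and 1.77 CPM with the first hairpin and 3.31, 2.41 and 4.48 CPM with the second, a log2 fold change of -2.03 ± 0.217 (SE, adjusted p = 4.21e-06), FGF19 (-1.5) and the receptor FGFR3 (-0.87) fell, and FGF2 rose by 1.59. Of 15 MAPK feedback genes 6 rose and 6 fell, 40% each way beside 22.5% and 22.1% of all genes. DUSP4, a phosphatase that switches off ERK, had the largest fall among genes averaging 5 CPM or more, at 16.1, 11.2 and 18.2 CPM in shRenilla, 1.72, 2.58 and 1.77 CPM with the first hairpin and 3.89, 2.83 and 4.74 CPM with the second, a log2 fold change of -2.46 ± 0.176 (SE, adjusted p = 8.14e-08). ETV5, an ETS factor that follows FGF signals, fell by 1.73, while EGR1, an immediate-early factor, rose by 2.57 and the phosphatase DUSP5 by 1.69.

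In the Notch pathway 4 of 16 tested genes rose and 9 fell (3 and 7 without the first shRenilla library). The ligands DLL1 (-1.63) and DLL4 (-1.33) and the feedback inhibitor NRARP (-1.37) fell, the ligand JAG1 and the target factor HEY1 rose by 1.28 and 2.74, and NOTCH1 (-0.17) and HES1 (0.04) did not pass. Of 12 hedgehog genes 5 rose (41.7%) and 2 fell (16.7%), beside 22.5% and 22.1% of all genes. The ligand SHH stood at 8.14 CPM in shRenilla, 2.21 CPM with the first hairpin and 2.78 CPM with the second, a fall (-1.74), while CDON, a co-receptor, rose by 1.38, and GLI1 (-0.17) and GLI2 (0.2) did not pass.

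Developmental transcription factors were lower in most families, but not in the SOX list, and the list of ZIC, GATA and mesenchymal regulators was mixed. These factors set position and lineage in the embryo, and their promoters are typical Polycomb targets. In the homeobox list outside the HOX clusters, 29 of 44 tested genes fell, 24 by more than 1.5-fold, and 5 rose, with a median of -0.73. LHX2, a LIM homeobox factor of eye and forebrain (chr9:126763949-126795580, GRCh37), read 135, 134 and 132 CPM in shRenilla, 34.8, 36.8 and 30.2 CPM with the first hairpin and 48.5, 39.9 and 48.9 CPM with the second. The groups were far apart and the log2 fold change was -1.77 ± 0.0793 (SE, adjusted p = 8.36e-10). UNCX, a somite and neuron factor, read 32.5, 26.5 and 24.6 CPM in shRenilla, 4.29, 4.25 and 2.96 CPM with the first hairpin and 8.45, 6.6 and 6.65 CPM with the second, a log2 fold change of -2.41 ± 0.125 (SE, adjusted p = 3.45e-09). NKX6-2 (-2.21) and EN2, an engrailed factor (-1.35), fell, while DLX3 rose by 3.2. PRRX1 (0.19), MEIS1 (-0.14) and MEIS2 (-0.13) did not pass. Without the first shRenilla library 31 fell and 5 rose.

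Of 14 tested factors, those of the PAX and EYA families and SIX2 with its relatives, 7 fell and 2 rose (1 without the first shRenilla library). PAX7, a factor of muscle progenitors and neural crest, read 142, 155 and 169 CPM in shRenilla, 48.6, 51.3 and 39.9 CPM with the first hairpin and 68.7, 51.9 and 73.4 CPM with the second, a log2 fold change of -1.5 ± 0.105 (SE, adjusted p = 6.50e-08). Its relative PAX3 (-1.24) and the eye factor PAX6 (-0.99) fell, and SIX2 rose by 0.83. HOXC10, which acts in hind trunk and limb, read 139, 139 and 151 CPM in shRenilla, 44.6, 50.01 and 42.9 CPM with the first hairpin and 48.1, 40.5 and 51.4 CPM with the second, with overlap between the hairpins and none with shRenilla, and a log2 fold change of -1.63 ± 0.0793 (SE, adjusted p = 1.82e-09). Genes of the HOXA and HOXD clusters were too low to be tested, and each cluster summed to less than 1 CPM in all 9 libraries. Of 8 T-box factors 5 fell and 1 rose: TBX2 (-1.69), TBX1 (-0.95) and TBX3 (-0.83) were among those that fell. Of 16 forkhead factors 10 fell and 2 rose, with FOXC2 (-1.16) and FOXF2 (-0.96) down and FOXP2 (1.37) up. GATA3 (-1.13), GATA4 (-1.17) and GATA5 (-1.27), factors of heart, gut and blood lineages, fell; their list, with ZIC and mesenchymal regulators, held 21 tested genes, of which 6 rose and 9 fell (6 and 7 without the first shRenilla library), with a median of -0.05. SOX factors showed no common direction: 3 of 9 rose (33.3%) and 2 fell (22.2%), with SOX8 (-1.48) down and the cartilage factor SOX9 (1.01) up. SNAI1, which represses epithelial genes, rose by 3.31, and its relative SNAI2 (0.1) did not pass.

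**Figure D3:**
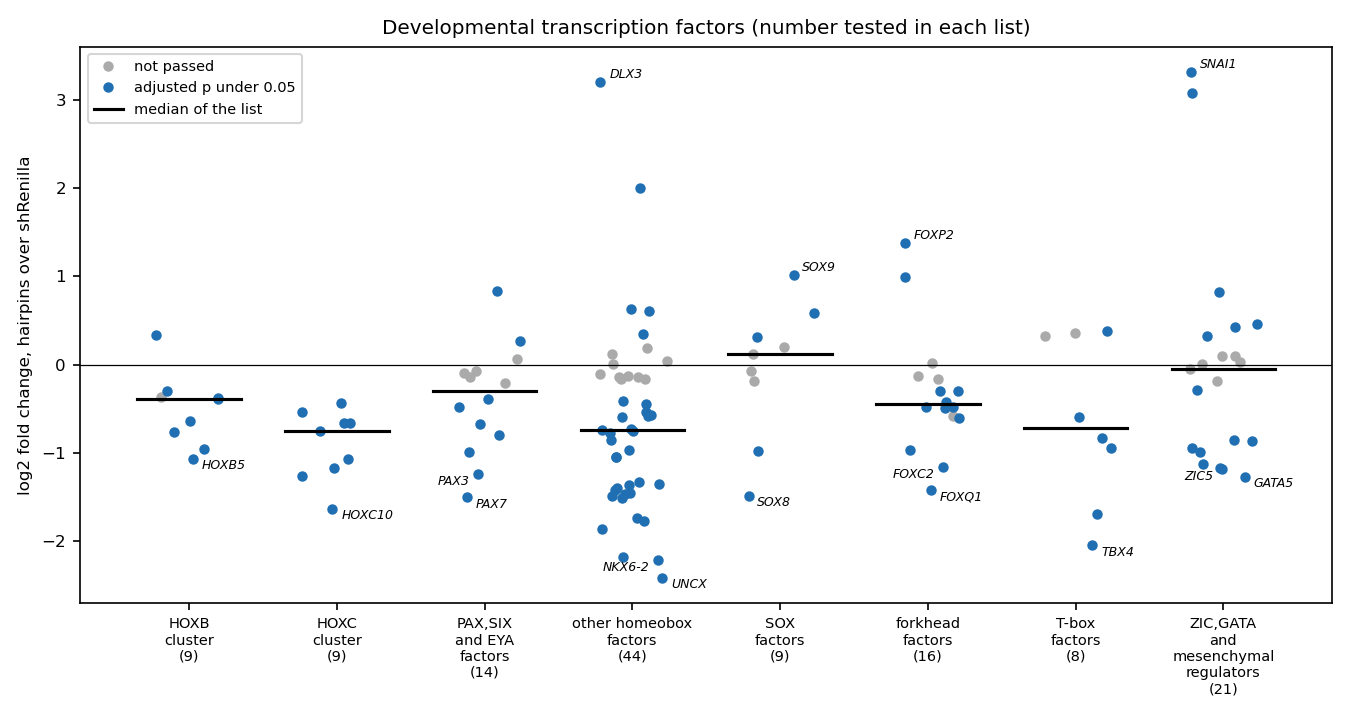
Log2 fold change (hairpins over shRenilla, vertical axis) of each tested member of 8 families of developmental transcription factors, blue where the adjusted p was under 0.05, grey where it was not, with a black line at the median of each family. The HOXC, other homeobox and T-box medians lie below -0.5, and the SOX median lies just above 0.

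Cell adhesion and lineage genes were mixed. Of 12 tested epithelial junction genes 6 rose and 3 fell. CDH3, P-cadherin, rose by 3.14 (7.11 CPM in shRenilla, 60.2 CPM with the first hairpin and 65 CPM with the second), DSP, desmoplakin (-1.64), fell and TJP1 (-0.12) did not pass. ELF3, an epithelial ETS factor, had 1 count in shRenilla and 762 with the hairpins, a ratio of 397 (95% counting interval 71.1 to 15706). CDH1, E-cadherin, gave a ratio of 75.3 (95% counting interval 20.7 to 625), at 1.37 and 2.91 CPM with the hairpins. Of 33 axon guidance genes 15 rose (45.5%) and 7 fell (21.2%), beside 22.5% and 22.1% of all genes (14 and 9 without the first shRenilla library). SEMA3B, a secreted semaphorin, stood at 6.98 CPM in shRenilla, 88 CPM with the first hairpin and 63.1 CPM with the second (log2 fold change 3.41), SEMA3A rose by 1.93, the receptor ROBO2 (-1.25) fell and NRP1, the semaphorin co-receptor, did not pass (0.00). Of 13 neuronal genes 4 rose (30.8%) and 5 fell (38.5%), with log2 fold changes from -2.03 to 2.39. NPTX1 (-1.57) and the factor POU3F2 (-1.5) were among those that fell, and TUBB3 (0.08) did not pass. Among bone, cartilage and fat genes 9 of 13 rose and 3 fell. SPP1, osteopontin, rose by 3.74 and ALPL, the phosphatase of mineralising cells, by 3.4, while CEBPA, a factor of fat and myeloid cells, fell by 1.19.

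The complexes in which the fusion acts changed modestly. Of 26 tested BAF subunit genes 14 fell, 1 of them by more than 1.5-fold, and 4 rose, none by that much, and over the other settings 9 to 15 fell (11 without the first shRenilla library). DPF1, a neural BAF subunit (-0.85), and SMARCB1, the subunit that the fusion displaces (-0.37), fell, and ARID2, which marks the PBAF form, rose by 0.41. SMARCA4, the ATPase, read 456, 313 and 372 CPM in shRenilla, 376, 398 and 340.2 CPM with the first hairpin and 373, 342 and 375 CPM with the second and did not pass (-0.05), nor did SMARCA2 (-0.06) or ARID1A (0.00). Of 28 Polycomb genes 12 fell and 3 rose, with a median of -0.19. BCOR, of the variant complex PRC1.1, read 360.2, 371 and 369.8 CPM in shRenilla, 204, 207 and 175 CPM with the first hairpin and 216, 196 and 204 CPM with the second, a log2 fold change of -0.87 ± 0.0656 (SE, adjusted p = 1.29e-07), and CBX2 (-0.78), a reader of histone methylation, and SUZ12 (-0.53), a core subunit of PRC2, fell. PCGF5 rose by 0.98. Of the 14 tested synovial sarcoma markers 6 fell (42.9%) and 1 rose (7.14%), beside 22.1% and 22.5% of all genes. The 6 include SSX1 and SS18, the genes at the ends of the fusion that the hairpins target. SIM2, a bHLH-PAS factor (-2.02), was lower too, while ZIC1, TLE1 and PRAME did not pass.

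**Figure D4:**
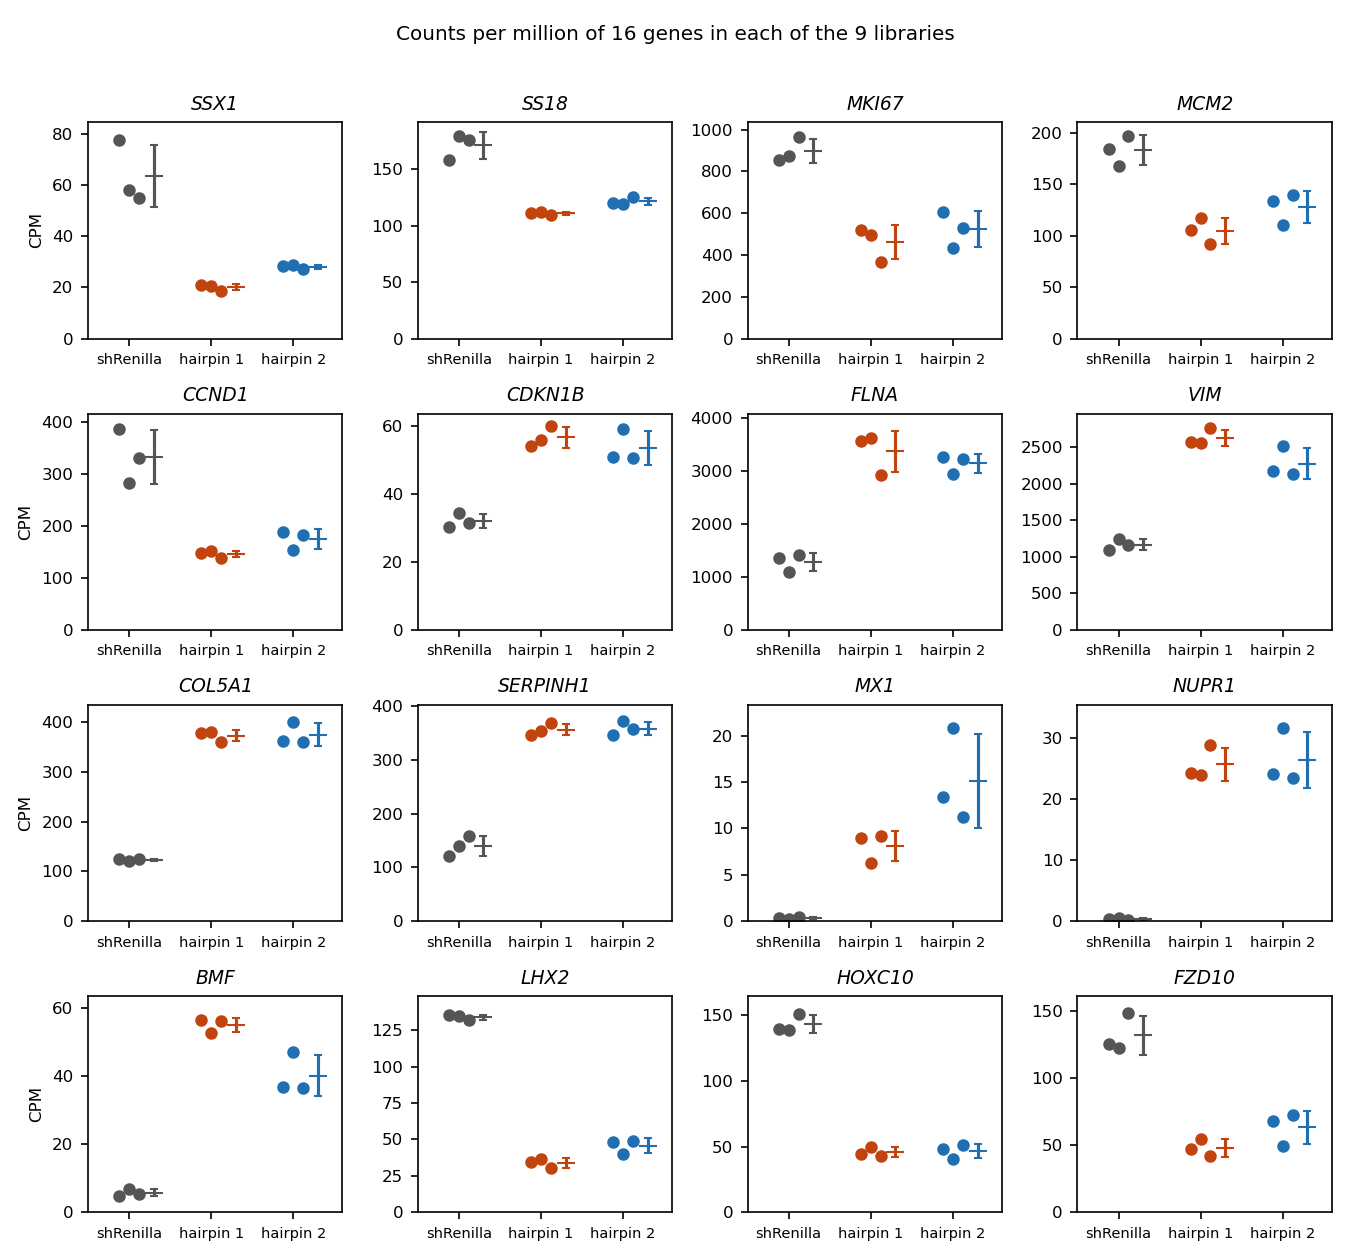
CPM (vertical axes, each from 0) of 16 genes in each library, with shRenilla in grey, the first hairpin in red and the second in blue, and the mean and SD of each group of 3 at its right. In each of the 16 panels the 6 hairpin libraries lie wholly above or wholly below the 3 shRenilla libraries. The 16 genes were chosen by hand for display with their values known, and 38.7% of all genes tested separate in this way.

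Of the 2623 genes called on the mean of both hairpins, 2411 also passed for each hairpin alone, 146 for the first alone, 50 for the second alone and 16 for neither. These counts are a description, since the genes were chosen on that mean and both hairpins share the shRenilla libraries. Tested directly against each other, the hairpins differed in 17 genes (0.119% of those tested) by the same rule for a call, and 1142 genes had an unadjusted p under 0.05. The number of genes that differ between the hairpins was unstable and became 60 and 55 without the first or the second shRenilla library, 5 to 7 without 1 library of the first hairpin, 6 and 10 without the first or the third library of the second, and 87 with DESeq2. The second hairpin was higher in 16 of the 17. KRT18 and KRT8, the keratin pair of simple epithelia, differed by 1.12 and 1.06 on the log2 scale, second over first. KRT18 read 0.343, 0.0895 and 0.0483 CPM in shRenilla, 37.6, 39 and 37.8 CPM with the first hairpin and 89.96, 83.3 and 75.4 CPM with the second, and so was near 0 in shRenilla and higher with the second hairpin in every library. MYOF, the membrane repair protein myoferlin, differed by 1.05, CD44 by 1.12 and the laminin receptor chain ITGA3 by 1.09. WNT16 and EGFLAM, a matrix protein that is also called pikachurin, were lower than in shRenilla with both hairpins, and less so with the second (differences 0.66 and 0.86).

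MIR30A was the 1 gene of the 17 that was higher with the first hairpin, and its sequence is shown because the methods' vector is built on it. SGEN lentiviral vectors carry their hairpin in a backbone taken from the primary transcript of MIR30A. The RefSeq hairpin on GRCh38.p14, chr6:71403551-71403621 on the minus strand, is printed with the seed of the 5′ arm in capitals.
MIR30A: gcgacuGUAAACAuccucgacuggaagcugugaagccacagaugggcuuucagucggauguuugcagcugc
Its row held 729, 1371 and 764 counts in the shRenilla libraries, 513, 405 and 639 with the first hairpin, 141, 214 and 96 with the second, and 0 in each of the 6 libraries of cells that were given DMSO or dBRD9-A and no virus. Scaled, MIR30A read 27.7, 61.4 and 36.9 CPM in shRenilla, 23.2, 21.8 and 26.3 CPM with the first hairpin and 6.3, 8.31 and 4.84 CPM with the second. The hairpins differed by -1.86 (second over first, adjusted p = 0.00941). Reads of a vector backbone and reads of the locus cannot be told apart in these counts, and their part in the difference was not tested.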

How the data were processed

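RNA was measured by RNA-seq from libraries made with an NEBNext kit. Per the submitters' processing notes, reads were aligned with STAR to hg19 (GRCh37) and counted with featureCounts, with no version or strand setting in the sources used here. The authors deposited raw counts per transcript, not normalized, in 1 table per library. In the deposited table of dBRD9-A replicate 2, 4535 rows have a broken symbol with the count at the end of the cell. That library is in no comparison here and entered only the choice of 1 row per gene, the fit of all 15 libraries and the MIR30A counts.

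Of 48104 transcript rows, 1 was kept for each of 25679 symbols, that with the most counts summed over the 15 libraries. Dates in place of symbols were restored through transcript identifiers in 78 of 80 rows and the other 2 were dropped. No row names a spike-in control, although the methods name ERCC controls. Genes that passed filterByExpr (minimum count 10) in the 9 libraries were scaled with TMM. The quasi-likelihood test of edgeR 4.0.16 (R 4.3.3, robust) set the mean of both hairpins against shRenilla, and p-values were adjusted over all 14268 genes (Benjamini-Hochberg). A standard error is the size of the log2 fold change over the root of its F value. The common coefficient of variation was 8.91%. The scripts were checked on simulated counts. Genes with 0 shRenilla counts have bounds from a floor of 3 counts over the group, and genes with 1 to 3 counts have 95% exact binomial intervals of the ratio.

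Gene lists and markers were written by hand, and the members and lists were chosen with earlier results of these data known, so no list count is independent support. Genes are named by this rule: SSX1 and SS18, the largest gains and losses in CPM and in fold (mean of 5 CPM or more, no overlap), genes at 3 counts or fewer in 1 arm, up to 5 members of each list that passed and up to 3 that did not, members that define a list's role, and genes that differ between the hairpins. Alternatives were the tests of DESeq2 1.42.0 and of limma 3.58.1 (voom), other scalings, filters and folds, summed rows, each hairpin alone, all 15 libraries, the replicate number as a block, and each library left out. Deviations from the group mean gave r from -0.457 to 0.378 over 9 pairs of same-numbered libraries of different groups. Over 18 other pairs r ran from -0.38 to 0.54. With 3 libraries per group, whose deviations are tied to each other, these values cannot decide whether the numbers pair libraries. No pairing was assumed.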

Additional observations from a re-analysis of the deposited data

Results flagged for a closer look

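All 17 results that stood out are differences between the 2 hairpins against the same fusion. Each was tested as the second minus the first hairpin with edgeR's quasi-likelihood test over all 14268 genes, each group has 3 libraries, and no cause was tested. The number of genes that differ between the hairpins ran from 5 to 60 when 1 library was left out, with 60 without the first shRenilla library, and was 87 with DESeq2.

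Several are genes of intermediate filaments, adhesion and matrix that were higher than shRenilla with both hairpins. On the log2 scale INA, the neuronal filament internexin, differed by 1.13 (adjusted p = 0.000781), KRT18 by 1.12 and KRT8 by 1.06, with the second hairpin higher. MFAP5, a microfibril protein, differed by 1.52, TNS3, tensin-3, by 1.13, ITGA3 by 1.09, MYOF by 1.05, CD44 by 1.12 and HAPLN3, a hyaluronan link protein, by 0.99. TNNT2, cardiac troponin T, differed by 1.43, IGFN1, a muscle immunoglobulin-domain protein, by 0.89, CD9, a tetraspanin, by 1.38, the chemokine CCL5 by 1.24 and the cytokine receptor chain IL4R by 0.96, again with the second hairpin higher. The adjusted p of CD9 was 0.0498, the largest of the 17.

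WNT16 differed by 0.66 and EGFLAM by 0.86. Both were lower than shRenilla, at 23.6 and 37.2 CPM for WNT16 with the first and the second hairpin against 65.6 CPM in shRenilla. MIR30A differed by -1.86, the 1 gene with the higher level under the first hairpin.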

How the results depend on the processing

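The genes called higher with SS18-SSX1 knockdown numbered 1781 and the genes called lower with SS18-SSX1 knockdown 842. A fold above 2 in place of 1.5 left 1122 and 272. Leaving out each library in turn gave 1806 to 1938 higher and 717 to 920 lower with 14375 to 14426 genes tested in place of 14268, and 2275 of the called genes were also among the 2523 called without the first shRenilla library. With the replicate number as a block, which the fit reported does not use, 1784 were called higher and 831 lower, and 13 genes differed between the hairpins. At the 1.5-fold rule 65.3 to 72.6% of calls were higher over the alternatives (67.9% in the fit reported) and at a fold above 2 80.5%, and the median change of all genes ran from -0.03 to 0.05. The 17 genes that differ between the hairpins became 87 with DESeq2, 26 with RLE scaling and 78 with no filter, and 5 to 60 with 1 library left out, 60 of them without the first shRenilla library. The cause of these moves was not tested. The log2 fold change of SSX1 and the log2 fold change of SS18 stayed below 0 and past the threshold under each alternative run, that of SSX1 from -1.67 to -1.18 (-1.24 without the first shRenilla library) and that of SS18 from -0.63 to -0.49. Of 9677 values for 461 named genes, 9455 stayed on the same side of the threshold, 98 in 18 genes fell short of it, 124 in 51 genes newly passed, and none that passed in both fits changed sign. Counts of list members under these settings were chosen after seeing the data. At these depths a gene under 1 CPM rests on few reads, and its fold is the least certain.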

Other observations

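Some of the largest gains and losses in CPM lay outside every list. GPR124, an adhesion receptor of the Wnt pathway in brain vessels, read 182, 161 and 215 CPM in shRenilla, 1028, 1016 and 907 CPM with the first hairpin and 879, 788 and 900.0 CPM with the second, and its log2 fold change was 2.30 ± 0.0983 (SE, adjusted p = 5.13e-10). PTRF, which builds caveolae and is also called cavin-1, read 293, 228 and 259 CPM in shRenilla, 753, 729.6 and 738 CPM with the first hairpin and 800.0, 809.6 and 761 CPM with the second, a log2 fold change of 1.56 ± 0.0805 (SE, adjusted p = 3.16e-09). AHNAK, a giant scaffold protein of the membrane, rose by 1.59 and MAGED2 by 1.46. In the other direction HSP90AA1, the inducible cytosolic chaperone, read 2047, 1558 and 1524 CPM in shRenilla, 1041, 1078 and 1154 CPM with the first hairpin and 1128, 1102 and 1117 CPM with the second, a log2 fold change of -0.63 ± 0.0859 (SE, adjusted p = 4.02e-05). Without the first shRenilla library, its highest, the log2 fold change of HSP90AA1 was -0.47, short of the 1.5-fold rule for a call. CADM1, a cell adhesion molecule of synapses, fell by 0.96 and STMN1, which destabilises microtubules, fell by 0.80. The largest gains and losses were picked among called genes whose hairpin and shRenilla libraries do not overlap. The separation of the groups in these 7 genes follows from that choice.

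Receptors and enzymes were among the largest falls in fold. NFATC1, a calcium-regulated factor, stood at 30.3 CPM in shRenilla, 5.96 CPM with the first hairpin and 9.42 CPM with the second, a log2 fold change of -2.02 ± 0.132 (SE, adjusted p = 3.33e-08). TNFRSF18, a receptor of the TNF family, fell by 1.96 on the log2 scale. The membrane peptidase ECEL1 (-1.94), the glucagon receptor GCGR (-1.82) and the LIM homeobox factor LHX3 (-1.8) fell as well.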
